A study of Mus musculus with 2 samples.

Results

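The miR-101 and miR-26 families are described here in mononuclear cells from the lamina propria of the colon, the connective tissue layer under the gut epithelium that holds most of its immune cells. The members were all array probes named for mmu-miR-101a, mmu-miR-101b, mmu-miR-101c, mmu-miR-26a or mmu-miR-26b, in every arm, which gave 10 arms of 1900 mouse miRNA probes (5 of miR-101 and 5 of miR-26). The study set male Balb/c mice raised germ-free, without a microbiota, beside specific pathogen-free (SPF) male Balb/c mice, with 1 array of total RNA for each group. The labels give neither the age nor the number of animals behind each array. The families were chosen by name, for a target they share, with earlier results of these arrays known, so their values are a description. With 1 array per group no difference has a replicate check and no p-value is given.

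A miRNA is a short RNA that guides Argonaute proteins to messenger RNAs, mainly through bases 2 to 8 at its 5′ end, called the seed. Each hairpin precursor can release a 5p and a 3p arm, and usually 1 of them, the guide arm, is loaded and kept. Both families are known for repressing Ezh2, the methyltransferase of Polycomb repressive complex 2, which silences genes by methylating histone H3. In lymphocytes Ezh2 takes part in the proliferation of germinal centre B cells and in the stability of helper and regulatory T cell states. The guide arms are known to be 3p for miR-101 and 5p for miR-26.

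The guide arms are shown first, because the seed decides which targets they share and the bases beyond it decide how well 1 probe can tell them apart. Capitals mark bases 2 to 8. RefSeq (GRCm38.p6) held all 10 arms.
miR-26a-5p: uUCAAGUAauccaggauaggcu
miR-26b-5p: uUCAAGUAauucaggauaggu
miR-101a-3p: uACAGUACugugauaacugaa
miR-101b-3p: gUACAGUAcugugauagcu
miR-101c: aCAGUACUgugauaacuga

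miR-26a-5p and miR-26b-5p had the same seed, UCAAGUA, and were identical at 19 of 21 aligned bases. They differed by C11U and C21U, counted from 1 at the 5′ end of miR-26a-5p. The miR-101 arms were nearly the same sequence cut at different annotated ends, so that their bases 2 to 8 were shifted by 1 base each way around ACAGUAC of miR-101a-3p. miR-101c was identical to miR-101a-3p over all of its 19 bases. miR-101b-3p differed from it by A16G alone over 18 aligned bases, counted from the 5′ end of miR-101a-3p. The files give no probe sequences, and the signals of such close relatives cannot be fully told apart by hybridisation.

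The 3p arms of miR-26, the arms that are usually discarded, are shown because they come from the same precursors as the guide arms and were measured separately.
miR-26a-1-3p: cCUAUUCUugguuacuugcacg
miR-26a-2-3p: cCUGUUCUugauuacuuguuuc
miR-26b-3p: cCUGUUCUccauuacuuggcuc

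The miR-26a-1-3p and miR-26a-2-3p arms, from the Mir26a-1 and Mir26a-2 loci, were identical at 16 of 22 bases. miR-26a-2-3p also shares its whole seed with miR-26b-3p from Mir26b. Whether the probes report on these loci separately was not tested. The guide arm miR-26a-5p is the same from both loci and had 1 probe.

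In GENCODE M21 (GRCm38) each miR-26 gene lies inside a gene of the Ctdsp family, on the same strand. These host genes encode small phosphatases of the RNA polymerase II C-terminal domain. Mir26a-1 (chr9:119031796-119031885, plus strand) lies in an intron of Ctdspl, and Mir26b (chr1:74394310-74394394, plus strand) in an intron of Ctdsp1. Mir26a-2 (chr10:126995530-126995613, plus strand) lies in Ctdsp2 and overlaps an annotated exon of it. Mir101b (chr19:29135279-29135375, plus strand) lies in an intron of Rcl1, an RNA processing gene. Mir101a (chr4:101346945-101347027, minus strand) overlaps an exon of the long non-coding RNA gene E130102H24Rik. Mir101c (chr9:3038669-3038743, minus strand) lies in no other annotated gene.

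The seed matches that link both families to Ezh2 were located in the 3′ UTR of the principal Ezh2 transcript (GENCODE M21, 402 bases after the stop codon). Capitals mark the bases that pair with bases 2 to 8 of at least 1 guide arm, and the sequences are given 5′ to 3′ on the minus strand of chromosome 6.
miR-101, first match, chr6:47530468-47530491: gaaccttgAGTACTGTgggcaatt
miR-101, second match, chr6:47530412-47530436: atttgcaaAGTACTGTAacagtaat
miR-26, match, chr6:47530279-47530301: ataaagaaTACTTGAacttgttg

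The first miR-101 match began 58 bases and the second 113 bases into the UTR, and the miR-26 match began at base 248. The motifs searched were GTACTGT for miR-101a-3p, TACTGTA for miR-101b-3p, AGTACTG for miR-101c and TACTTGA for the miR-26 guide arms, on the transcript strand, since the miRNA pairs with the transcript. The motifs for the miR-101 arms overlap each other, and GTACTGT and AGTACTG occurred at both miR-101 matches while TACTGTA occurred at the second only. Among the first 402 bases of the 3′ UTRs of 15189 genes, 2.71% held GTACTGT, 3.36% TACTGTA, 2.24% AGTACTG and 2.88% TACTTGA. A match describes these letters and does not show binding. No Ezh2 messenger RNA was measured in the files analysed here.

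**Figure D1:**
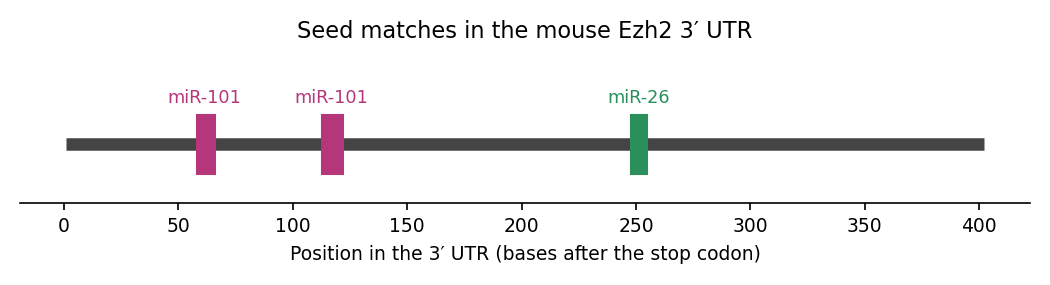
Positions of the seed matches along the 402 bases of the mouse Ezh2 3′ UTR (x axis, bases after the stop codon). Coloured boxes are the matches, drawn to scale: miR-101 from bases 58 and 113, and miR-26 from base 248.

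The values are median spot intensities, 1 spot per arm on each array. The background was the mean of the blank spots. It was 128.5 for the germ-free array (896 spots with an SD of 4.53) and 158.3 for the SPF array (895 spots with an SD of 5.33), and net intensity is the spot minus this mean. An arm counted as detected above a floor of the blank mean + 2 SD, a net intensity of 9.05 for the germ-free and 10.7 for the SPF array. In intensity this floor was 137.6 and 169.0, below the mean of spots without a probe, 143.5 and 176.2. Being detected thus does not set an arm apart from spots without a probe. SPF net intensities were multiplied by 0.849, which made the medians of the 1471 miRNA probes above the floor on both arrays equal. Log2 SPF over germ-free had a median of -0.06 and an SD of 0.40 over these shared probes. Different probes bind with different strength, so intensities compare arrays for 1 arm and not amounts between arms. Markers of blood cells were present on both arrays, with miR-142a-5p at intensities of 5927 and 4493, and so were markers of epithelium, with miR-192-5p at 1027 and 3415.

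Of the 10 arms, 7 were above the floor on both arrays and 3 were under it on both. All 5 guide arms were above this blank floor and all 5 were lower in SPF cells, with log2 values from -1.08 to -0.48 and a median of -0.49. Only 2 guide arms were above the stricter floor from spots without a probe on both arrays, as given below. The background is a share of 57.6% of the 1471 shared probes with a log2 value below 0. Guide arms of 1 family are close in sequence, so the 5 are not independent measurements. At 2-fold, 1 member, miR-101a-3p, was lower and none was higher, and 1.43% of the shared probes were at least 2-fold lower and 1.56% at least 2-fold higher. At 1.5-fold, 2 members were lower, beside 7.61% of the shared probes. The 2 detected arms that are not guide arms, miR-26b-3p and miR-26a-2-3p, were at -0.08 and 0.07. In bulk RNA, fewer cells that hold a miRNA and less of it per cell cannot be told apart.

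**Figure D2:**
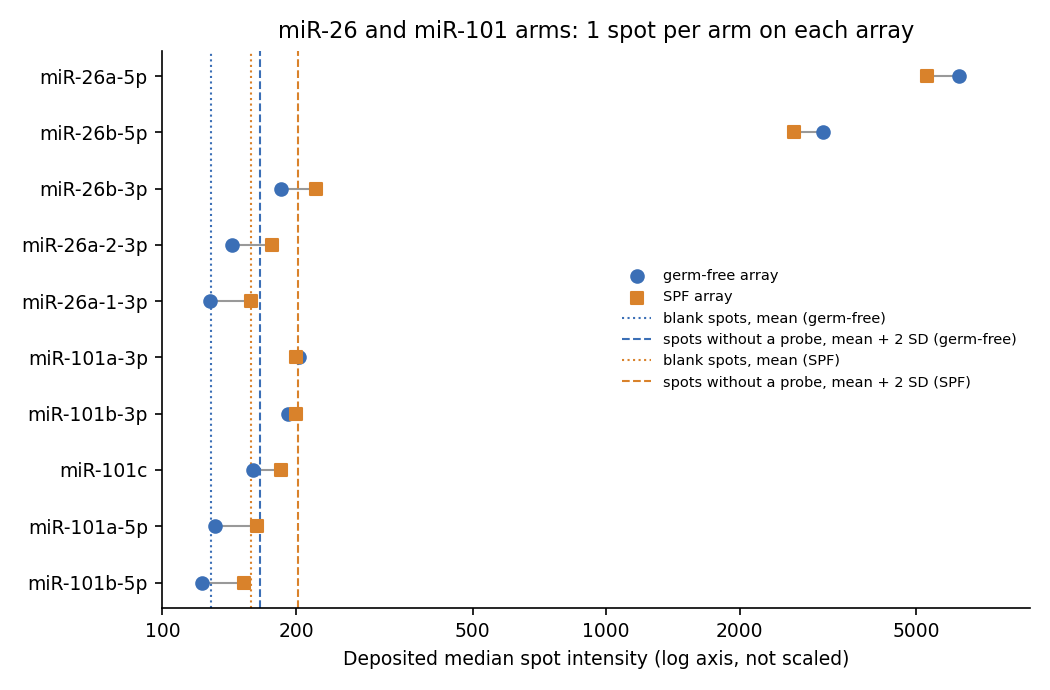
Deposited spot intensity (x axis, log scale, arbitrary units, not scaled between arrays) of each of the 10 arms on the germ-free (circles) and the SPF (squares) array. Dotted lines mark the mean of the blank spots and dashed lines the mean + 2 SD of spots without a probe. The 2 miR-26 guide arms lie far to the right and are dimmer in SPF cells, while the miR-101 guide arms lie near the dashed lines.

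miR-26a-5p, the member with the brightest spot and a brake on cell cycle and Polycomb genes, had an intensity of 6238 in germ-free and 5276 in SPF cells. It ranked 33 of 1900 miRNA probes in germ-free cells and 57 in SPF cells. The spot was thus dimmer in SPF cells even before scaling, although the blank spots of that array were brighter. Its net intensity was 6109 in germ-free and, after scaling, 4346 in SPF cells, a log2 value of -0.49 or 1.41-fold lower.

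miR-26b-5p, with the same seed, had intensities of 3075 in germ-free and 2654 in SPF cells and ranked 85 and 109. Its net intensity was 2947 in germ-free and 2119 after scaling in SPF cells, a log2 value of -0.48. The ratio of miR-26a-5p to miR-26b-5p, which a constant scaling factor cannot change, was 2.07 in germ-free cells and 2.05 in SPF cells. Both guide arms were therefore lower by nearly the same factor. With 19 of 21 aligned bases identical, the 2 probes are not independent measurements. Their spots lie side by side in 1 block of the array.

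The technical spread at this brightness came from S-Probe28, a control probe with 8 spots and a mean net intensity of 4846 with the germ-free sample. The SD of a difference between its single spots on the 2 arrays was 0.15 on the log2 scale, and its own log2 value was 0.11. The values of -0.49 and -0.48 are larger than this spread, which covers spots within an array and not the spread between animals or hybridisations. Among the 490 brightest shared probes the median was -0.08, with quartiles of -0.25 and 0.10, and 6.12% were at least 1.5-fold lower. Of the 1471 shared probes, 162 had a lower value than miR-26a-5p and 170 a lower value than miR-26b-5p. The probes next to miR-26a-5p in mean level were let-7d-5p at -0.23, miR-7053-5p at 0.02, miR-3072-5p at 0.10 and miR-29a-3p, a repressor of collagen genes, at -0.70.

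The local background read around the miR-26 guide spots differed between the arrays. It was 6342 around miR-26a-5p with the germ-free sample, 102% of the spot itself, and 637 with the SPF sample, 12.1% of the spot. Around miR-26b-5p it was 3300 and 510, or 107% and 19.2%. Subtracting it leaves neither arm with a value in germ-free cells, so no log2 value with local background can be given for them. Without any background subtraction the log2 values were -0.52 for miR-26a-5p and -0.49 for miR-26b-5p.

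The 3p arms of miR-26 were dim. miR-26b-3p had intensities of 185.5 in germ-free and 221.6 in SPF cells, a net intensity of 57.0 against 53.8 after scaling and a log2 value of -0.08. miR-26a-2-3p had 143.3 and 176.5, close to the mean of spots without a probe on each array. Its net intensity was 14.7 against 15.4 after scaling, with a log2 value of 0.07. Both differences are smaller than the spot spread of the control probe nearest in level (SD of 0.18 for S-Probe6 and 1.78 for QC-Probe). miR-26a-1-3p had 128.2 and 158.4, within 1 intensity unit of the blank mean on each array. The ratio of net intensity of miR-26b-5p to miR-26b-3p was 51.7 in germ-free and 39.4 in SPF cells.

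miR-101a-3p, a repressor of Ezh2 and of other Polycomb and proliferation genes, had the lowest log2 value of the 7 detected arms. Its intensity was 203.0 in germ-free and 199.8 in SPF cells, ranks 788 and 1107. These intensities were nearly equal, while the blank mean was 128.5 and 158.3, so most of the difference in net intensity is the difference between the blank means. Net intensity was 74.5 in germ-free and 35.2 after scaling in SPF cells, a log2 value of -1.08 or 2.11-fold lower.

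miR-101b-3p was also lower in net intensity, with intensities of 192.2 and 200.3 and ranks of 864 and 1101. Its spot was brighter on the SPF array, so before scaling the lower net intensity came from the higher blank mean of that array. Its net intensity was 63.7 in germ-free and 35.6 after scaling in SPF cells, a log2 value of -0.84 or 1.79-fold lower. miR-101c, dimmer still, had intensities of 160.2 and 184.9, a net intensity of 31.7 against 22.5 after scaling and a log2 value of -0.49. The miR-101c spot, too, was brighter on the SPF array before the blank mean was subtracted. Since miR-101c and miR-101a-3p share all 19 bases, these 3 probes are not independent measurements. The 5p arms were at the level of the blank spots, with intensities of 131.6 and 163.5 for miR-101a-5p and 123.1 and 153.0 for miR-101b-5p.

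The weak signal limits the miR-101 values. S-Probe6, the control nearest to miR-101a-3p in level, had a mean net intensity of 65.7 with the germ-free sample and an SD of 0.18 for a single-spot difference. Its own log2 value was -0.24. For miR-101b-3p the nearest control was S-Probe7, with an SD of 0.32 and a log2 value of 0.18, and for miR-101c S-Probe2, with an SD of 0.62 and a log2 value of -0.26. The values of miR-101a-3p and miR-101b-3p exceed these spreads, and that of miR-101c does not. The repeated controls used had every spot above the blank mean on both arrays. Among the 7 with a germ-free net intensity between 20 and 100, 6 had a log2 value below 0. The median of the 7 was -0.31, with a range from -0.80 to 0.18. Weak control probes thus leaned the same way, and their part in the miR-101 values was not tested. They were picked by germ-free net intensity. Among the 490 shared miRNA probes of middle brightness, miR-101a-3p and miR-101b-3p included, the median was -0.02 and 54.9% were below 0. Of these, 3.88% were at least 1.5-fold lower and 0.612% at least 2-fold lower. The 491 dimmest shared probes, miR-101c included, had a median of -0.07, with 56.4% below 0.

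Of the shared probes, 1.16% were lower than miR-101a-3p and 2.65% lower than miR-101b-3p. The spots without a probe gave a stricter floor, an intensity of 165.8 for the germ-free and 202.2 for the SPF array. Above it on both arrays were 3 arms, miR-26a-5p, miR-26b-5p and miR-26b-3p. miR-101a-3p and miR-101b-3p were above it in germ-free cells and under it in SPF cells. With the blank mean subtracted, their log2 values became bounds of -0.96 or lower (at least 1.94-fold lower) and -0.73 or lower (at least 1.66-fold lower). These bounds hold only with that subtraction and a scaling factor of 0.873. Without background subtraction the values were -0.30 and -0.22. The other 5 arms, miR-101c among them, were under it on both arrays.

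**Figure D3:**
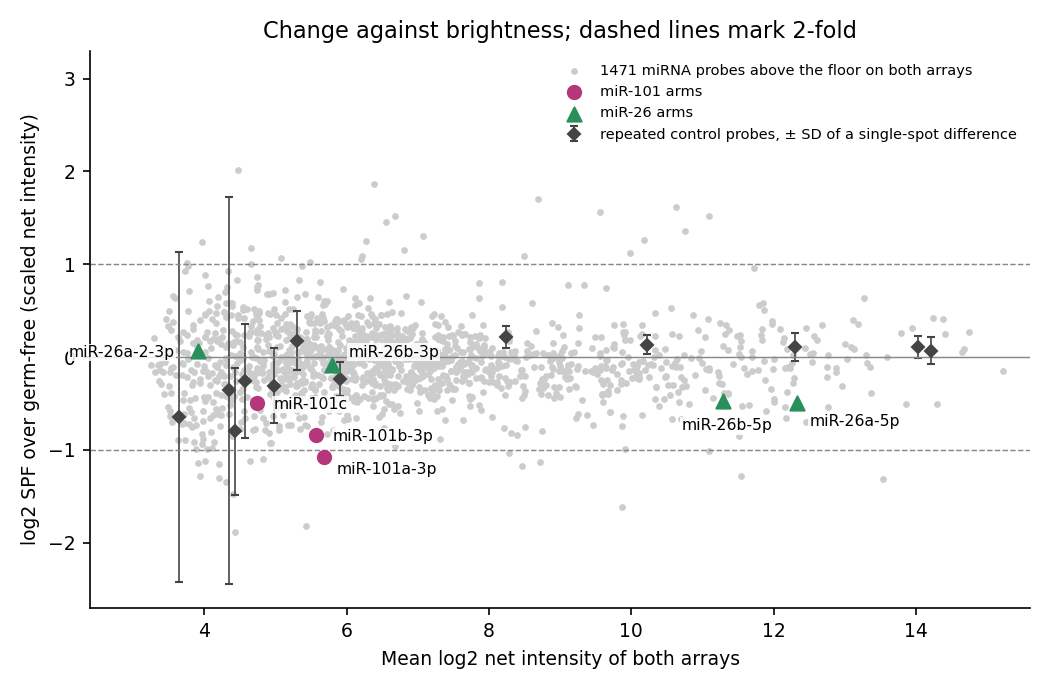
Log2 SPF over germ-free (y axis) against mean log2 net intensity of both arrays (x axis) for the 1471 shared probes (grey), the detected miR-101 arms (circles), the detected miR-26 arms (triangles) and repeated control probes (diamonds, mean with the SD of a single-spot difference). The miR-26 guide arms lie at -0.49 and -0.48 at the bright end, and miR-101a-3p and miR-101b-3p at -1.08 and -0.84 among dim probes.

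The 2 miR-26 guide arms, miR-101a-3p and miR-101b-3p were lower in SPF cells under each of the 11 alternatives that gave them a value, while their sizes varied. The alternatives reprocess the same spots and add no measurement. miR-101a-3p was at least 2-fold lower under 6 of the 11, all of which subtract the blank mean. Among these 6, doubling or dropping the floor changes a single arm only through the scaling factor. Relative to the median shared probe, miR-101a-3p was at -1.02, miR-101b-3p at -0.78, miR-26a-5p at -0.43 and miR-26b-5p at -0.42. Without background subtraction miR-101a-3p was at -0.30 and miR-101b-3p at -0.22, and with local background subtraction at -0.30 and -0.46. Before scaling, the spot minus its local background was 35.7 in germ-free and 40.2 in SPF cells for miR-101a-3p. For miR-101b-3p it was 57.4 and 58.1, so with local background the lower values of both arms came from the scaling. miR-101c changed direction with local background subtraction, to 0.14. The value of miR-26b-3p was 0.15 without scaling, -0.26 with block medians subtracted and -0.43 with local background subtraction, the last near the reported value of miR-26a-5p. miR-26a-2-3p was at -0.02 with scaling on the spike controls and at -0.27 with local background subtraction. Without scaling, where the median shared probe was at 0.18 and 28.1% of the shared probes were lower, 5 detected arms were lower and 2 higher, against 6 and 1 as reported. With scaling on the spike controls all 7 were lower, beside 67.9% of the shared probes.

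**Figure D4:**
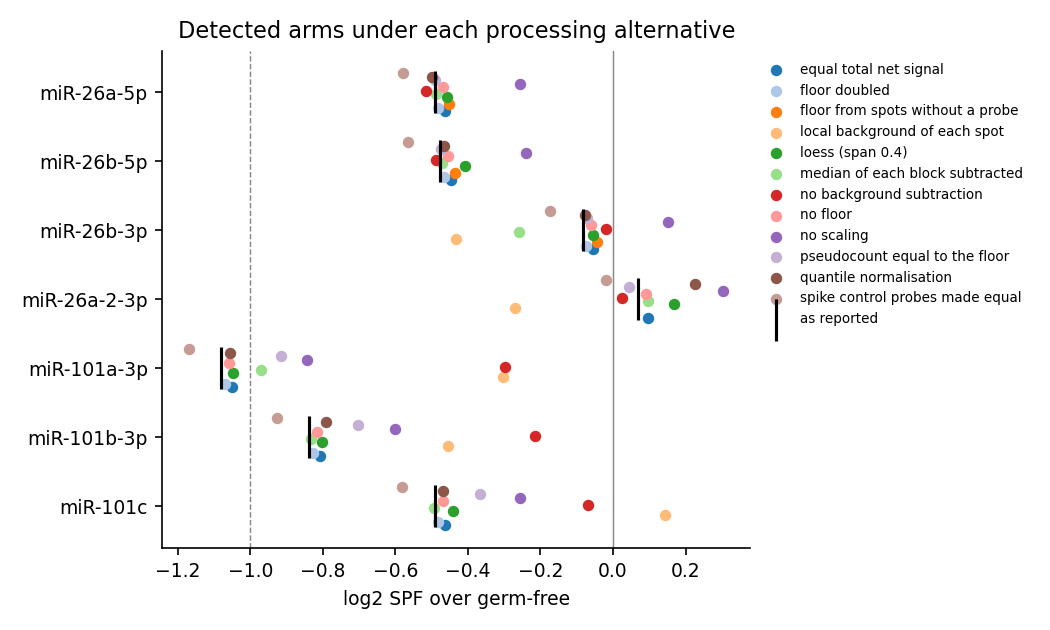
Log2 SPF over germ-free (x axis) of the 7 detected arms as reported (black bars) and under each processing alternative that gave a value (coloured points). The miR-26 guide arms stay between -0.58 and -0.24, and miR-101a-3p spreads from -1.17 to -0.30.

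Other miRNAs reported to repress Polycomb genes were taken as a list of 20, of which 19 were detected on both arrays. Of these, 16 were lower and 3 higher in SPF cells, with a median of -0.22, beside -0.06 for all shared probes. No member of the list was at least 2-fold lower and 2 were at least 2-fold higher, beside 1.43% and 1.56% of all shared probes. As reported, 57.6% of all shared probes were lower. Without scaling, 8 of the list were lower and 11 higher, and 28.1% of all shared probes were lower. Under the other scalings most of the list was lower. The counts were 12 lower and 6 higher after quantile normalisation, beside 50.6% of all shared probes lower, and 13 and 6 after loess, beside 49.8%. They were 14 and 5 with equal total signal, beside 53.1%. Making the spike controls equal gave 16 lower and 3 higher, beside 67.9%. Subtracting block medians gave 13 and 6, beside 49.4%. With local background subtraction 14 of the list had a value, of which 5 were lower and 9 higher, beside 52.6% of 1436 probes lower.

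Among the list's members against Ezh2, the let-7 family, which also represses Ras and Myc and marks differentiated cells, was at -0.21 for let-7a-5p, -0.02 for let-7b-5p, -0.11 for let-7c-5p and -0.23 for let-7d-5p. Its other members were at -0.27 for let-7e-5p, -0.31 for let-7f-5p, -0.54 for let-7g-5p and -0.35 for let-7i-5p. miR-98-5p, with the let-7 seed, was at -0.22. These probes differ from each other by few bases, so their signals are not independent.

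miR-214-3p, a stromal miRNA, was at -0.34, miR-25-3p at -0.15, miR-30d-5p at -0.06 and miR-138-5p at -0.02. The neuronal miR-124-3p was at -0.29 near the floor, the pancreatic miR-217-5p at 0.11 near the floor, and miR-137-3p was under the floor on both arrays. The members against Bmi1 or Suz12, other Polycomb subunits, differed from each other. miR-128-3p was at -0.43, while the epithelial miR-200b-3p and miR-200c-3p were at 1.53 and 1.12.

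miR-144-3p, an erythroid miRNA and a relative of miR-101 by seed, was at -0.77. Its sequence is shown because 6 bases of its seed are those of miR-101a-3p.
miR-144-3p: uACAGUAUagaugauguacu
Its first difference from miR-101a-3p is C8U, counted from the 5′ end, and the arms were identical at 8 of 20 bases. Its intensities were 181.7 in germ-free and 194.9 in SPF cells, as dim as the miR-101 arms. Also sharing 6 bases with a miR-101 guide seed, miR-139-5p was at -0.35 and miR-582-5p was not above the floor on both arrays. No probe outside the family had the whole seed of a guide arm of either family among the 1623 of 1915 array names matched to RefSeq. miR-6371, which shares 6 bases with the miR-26 seed, was under the floor on both arrays, with intensities of 127.6 and 152.4.

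**Figure D5:**
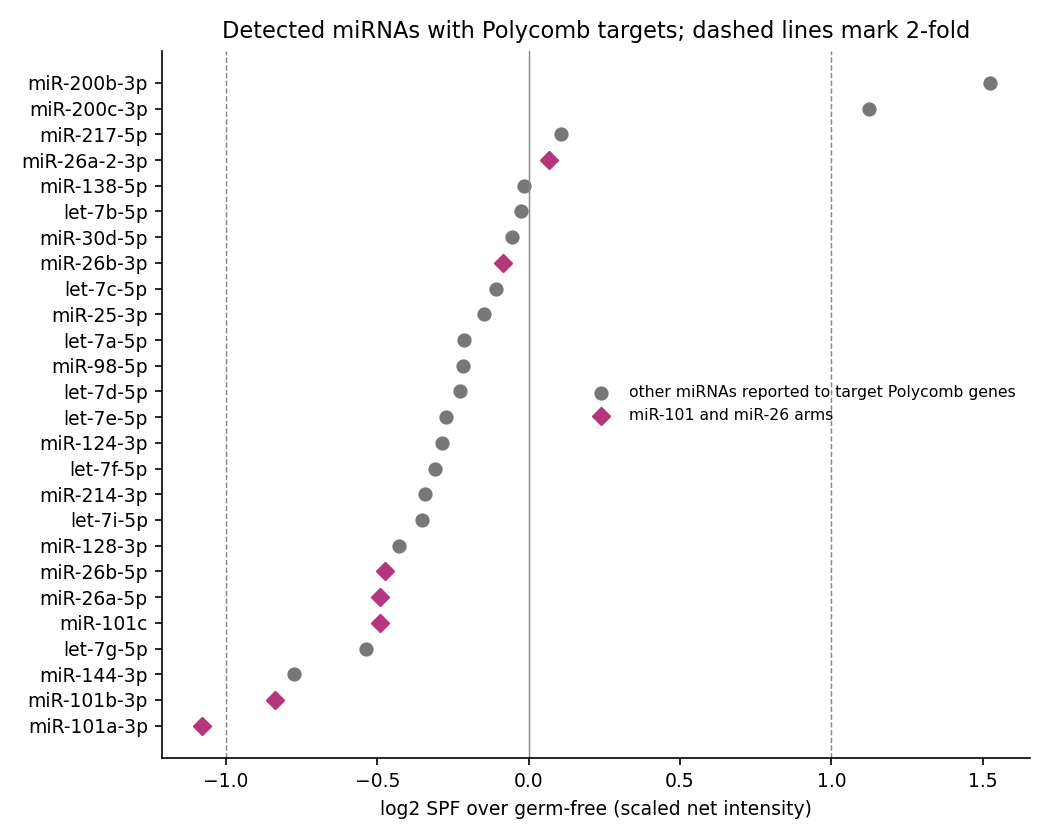
Log2 SPF over germ-free (x axis) of the 7 detected miR-101 and miR-26 arms (diamonds) and of 19 other detected miRNAs reported to target Polycomb genes (circles), ordered by value. The guide arms lie at the low end, from -1.08 to -0.48, with miR-144-3p at -0.77 and let-7g-5p at -0.54 among them. At the high end are miR-200b-3p and miR-200c-3p.

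Markers of cell types moved between the arrays alongside the guide arms. The summed net intensity of 4 T and B lymphocyte miRNAs was 21042 in germ-free and 9100 after scaling in SPF cells, with all 4 lower and a median of -0.66. Most of these sums was 1 probe, miR-150-5p, with 18699.5 and 7552 and a log2 value of -1.31. miR-181a-5p was at -0.73, miR-342-3p at -0.59 and miR-155-5p at -0.36. Both miR-142a arms, which mark the blood lineages, were lower, with sums of 8880 and 5215. The 9 intestinal epithelium miRNAs summed to 5580 and 14649. Of these, 8 were at least 2-fold higher, beside 1.56% of all shared probes, and miR-375-3p was at -0.01. Myeloid miR-223-3p was at 0.74, and the 2 smooth muscle miRNAs were at 0.45 for miR-143-3p and 0.32 for miR-145a-5p. The 4 stromal and endothelial miRNAs had a median of -0.10, and the 2 erythroid miRNAs were at -0.27 for miR-451a and -0.77 for miR-144-3p. None of these markers was under the floor on either array. Their part in the values of miR-26 and miR-101 was not tested.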

How the data were processed

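miRNAs of 2 samples were measured on 1 array each, grouped by the sample titles. Hy5-labelled RNA from a Qiagen kit was used, per the labels. Per the file headers, the deposited values are median spot and local background intensity for 3200 spots, scanned at 3 gains. They hold no background subtraction or scaling as far as the columns show. The array platform is not given in the sources used here.

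Net intensity was the spot minus the mean of spots named BLANK, leaving out 1 that the SPF file marks NG. The floor, the scaling and log2 SPF over germ-free were computed over all miRNA probes with Python 3.11.15, pandas 2.3.3 and statsmodels 0.14.6. The code was also run on simulated arrays with planted changes, which checks the code and not the values of single members. The number of arrays limits the precision. The members and lists were chosen with earlier results of these data known. Named miRNAs are all members, the Polycomb list, probes that share 6 or more seed bases with a member, the neighbours of the brightest member in level, and cell type markers. The spots that touch the miR-26 guide spots are outside this rule and were named after their values were seen. With 2 arrays no likeness of pattern was ranked. Technical spread came from control probes with 8 or more spots. Any with a spot at or below the blank mean on either array was left out. Seeds and positions are from RefSeq and GENCODE M21, matched by name.

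Alternatives tried were scaling by quantiles, loess (span 0.4), equal total, spike control and no scaling, no and local background subtraction, block medians, a pseudocount equal to the floor, other floors and other fold thresholds.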

Additional observations from a re-analysis of the deposited data

How the results depend on the processing

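The count of 1 member at least 2-fold different, miR-101a-3p, became 0 with no scaling, with no background subtracted, with the local background, with block medians subtracted, with a pseudocount equal to the floor and with a floor set by spots that hold no probe, where miR-101a-3p is a bound. The share of all probes with a value that were at least 2-fold different was 2.99% as reported and 3.26% with no scaling. It was 0.61% with no background subtracted, 10.3% with the local background and 2.24% with block medians subtracted. With the pseudocount it was 2.11%, and with the floor from spots that hold no probe 2.21%. The member count was 2 at a fold threshold of 1.5, beside 12.2% of the shared probes, and 0 at 3, beside 0.476%. The median of the guide arms (-0.49) was -0.26 without scaling, -0.30 with no background subtracted and -0.30 with the local background, where 3 arms had a value. The median of all detected arms (-0.49) was -0.26, -0.22 and -0.30 under the same settings, and -0.22 with the pseudocount, which brings in the 3 arms under the floor. The Polycomb list median (-0.22) was 0.018 without scaling and 0.078 with local background subtraction. Beyond the shift of all probes without scaling, the cause was not tested. Of 77 values of single arms under these alternatives, 67 stayed within the technical spread of the reported value and 10 did not. This spread was the SD of the control nearest each arm in level, from 0.15 for miR-26a-5p to 1.78 for miR-26a-2-3p. For dim arms it is so wide that the count says little: none of the 10 values of miR-26a-2-3p lay outside it. miR-26a-5p, miR-26b-5p, miR-101a-3p and miR-101b-3p were lower in SPF cells under each of the 11 alternatives that gave them a value. With local background, miR-101a-3p and miR-101b-3p were lower only after scaling. No paired analysis was possible because each group has 1 array, and for the same reason no replicate could be left out.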

Other observations

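The 3p arms miR-26a-2-3p and miR-26b-3p share their whole seed with 2 late-numbered miRNAs, miR-7039-3p at a log2 SPF over germ-free of 0.29 and miR-6932-3p at 0.13. Around miR-101a-5p and miR-101b-5p, which were not detected, the probes with 6 shared seed bases were miR-154-5p at -0.27, miR-487b-5p at -0.18, miR-935 at 0.02 and miR-6374, which was not above the floor on both arrays.

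The spots that touch the miR-26 guide spots went in different directions. miR-1892 was at -0.40, miR-671-5p at 0.03, miR-1900 at 0.02, miR-135a-1-3p at -0.04, miR-1306-3p at 0.83 and miR-196a-5p, a miRNA of the Hox clusters, at 1.86. The block that holds them had a median of -0.0032 over 48 shared probes. Among its 13 miRNA spots with an intensity above 500 on both arrays, local background was a median of 67.0% of the signal with the germ-free sample and 12.2% with the SPF sample. Over all blocks these medians were 63.1% and 43.6% for 313 spots, of which 29 for germ-free and 5 for SPF had a local background at or above their own signal.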
